A study of Mus musculus with 8 samples.

Results

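miR-223 and miR-142 are microRNAs (miRNAs) known as markers of blood cells. Their mature products were followed in small RNA sequencing libraries of mouse bone marrow-derived macrophages. The members were chosen by name, with earlier results of these data known. They are both arms of miR-223 (mmu-miR-223-5p and mmu-miR-223-3p), both arms of miR-142a (mmu-miR-142a-5p and mmu-miR-142a-3p), and mmu-miR-142b. The prefix mmu, for mouse, is left out below. These are 5 of 1907 mature miRNAs listed in the count tables, and 3 of the 5 had any count. The macrophages were grown from the bone marrow of wild-type mice aged 8 to 12 weeks, over 6 days in medium with L929 supernatant, a source of macrophage colony-stimulating factor (MCSF). They were compared without stimulation (control, 3 libraries) and after 3 h with LPS at 100 ng/ml (3 libraries), a cell wall molecule of bacteria that activates macrophages. Whether replicate libraries stand for different mice or dishes is not stated in the labels. The p-values therefore reflect the spread among these libraries, part or all of which may be technical. There are also 2 chromosome conformation samples in the series, not analysed here.

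A miRNA is cut from a hairpin-shaped precursor, which yields a 5p arm and a 3p arm. As a rule 1 of these is retained in the Argonaute protein more than the other and then guides it to messenger RNAs that match the seed, bases 2 to 8 of the miRNA. miR-223 is a miRNA of granulocytes and monocytes, is driven by myeloid transcription factors such as PU.1 and C/EBP, and is known for restraining granulocyte production and inflammatory responses. miR-142 is made in nearly all blood cell lineages and in few other cells, and both of its arms are known to be functional.

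The mature sequences are shown because the results turn on which arm was counted and on how the miR-142 products match each other. They come from RefSeq (GRCm38.p6), where all 5 members matched by name, each to 1 hairpin. They are written 5′ to 3′ with the seed in capitals.
miR-223-5p: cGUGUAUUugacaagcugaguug
miR-223-3p: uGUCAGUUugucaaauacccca
miR-142a-5p: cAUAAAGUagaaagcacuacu
miR-142a-3p: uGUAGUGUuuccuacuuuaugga
miR-142b: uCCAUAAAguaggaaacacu

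The 5 seeds all differ, and no other listed miRNA with a sequence in the table had any of them. The 2 arms of miR-223 pair with each other over a longest unbroken run of 11 bases, and those of miR-142a over 10 bases. miR-142b is the exact reverse complement of 20 of the 23 bases of miR-142a-3p. It also resembles the other arm: the first 10 bases of miR-142a-5p (CAUAAAGUAG) recur in miR-142b from its base 3 onward.

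The hairpins are shown next, with mature miRNAs in capitals, because the miR-142 locus carries 1 hairpin on each strand. Mir142 lies on the plus strand at chr11:87756864-87756927, and Mir142b on the minus strand at chr11:87756841-87756955. All 64 bases of Mir142 lie inside Mir142b, as its reverse complement.
Mir142: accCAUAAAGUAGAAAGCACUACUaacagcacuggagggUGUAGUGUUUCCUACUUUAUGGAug
Mir142b: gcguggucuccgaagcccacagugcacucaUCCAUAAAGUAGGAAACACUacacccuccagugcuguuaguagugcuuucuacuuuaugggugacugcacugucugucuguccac
Mir223: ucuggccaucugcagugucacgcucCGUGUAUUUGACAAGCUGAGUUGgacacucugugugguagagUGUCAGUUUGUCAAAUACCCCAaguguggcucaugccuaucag

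Mir223 lies at chrX:96242817-96242926 on the plus strand, within the span of the long noncoding RNA gene F630028O10Rik (chrX:96239926-96243642). Its nearest coding neighbour is Vsig4, 4275 bp away. No gene other than Mir142b overlaps Mir142 in the RefSeq gene table, and the nearest gene is Tspoap1, 1267 bp away. In the map of the hairpins, miR-142a-3p and miR-142b stand over each other on opposite strands. miR-142a-5p faces a stretch of Mir142b that carries no annotated mature miRNA. miR-223 has no opposite-strand partner.

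**Figure D1:**
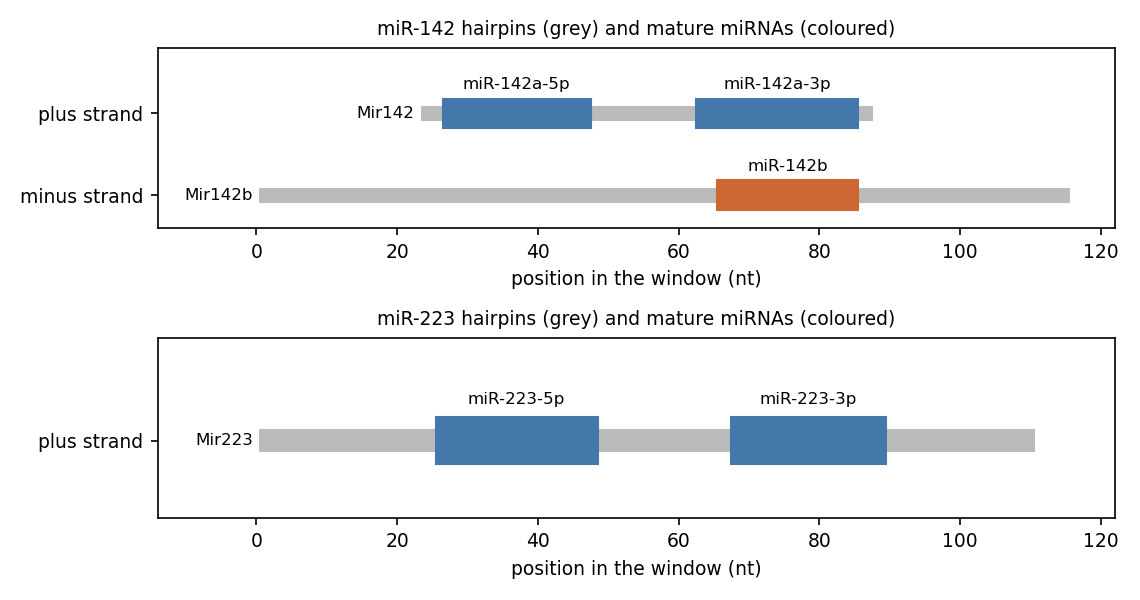
Hairpins (grey) and mature miRNAs (coloured) of the miR-142 locus (top, both strands) and of miR-223 (bottom, plus strand only), with positions in nucleotides from the leftmost base of the window. miR-142b covers 20 of the 23 bases of miR-142a-3p on the other strand, and 15 bases separate the arms of miR-142a against 19 in miR-223.

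The deposited values are counts per mature miRNA, with library totals from 3280688 to 4312555 counts and 684 to 714 miRNAs detected per library. Levels below are given as CPM, the usual unit of small RNA sequencing: counts brought to a common library size with TMM factors (trimmed mean of M values). The members are all 20 to 23 bases long and a read covers a whole miRNA. Their CPM values were therefore set side by side without a length term. Whether different miRNAs entered the libraries with equal efficiency was not tested. Orders and ratios between members or arms below are those of counts, and need not be those of molecules in the cells. The word abundant likewise refers to counts. Changes were tested with edgeR's quasi-likelihood test over the 357 miRNAs with enough counts, and an adjusted p below 0.05 (Benjamini-Hochberg) was called a change. Of the members, 3 (miR-223-5p, miR-223-3p and miR-142a-5p) passed this filter on low counts.

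miR-223-5p, the less abundant arm of miR-223, fell after LPS while miR-223-3p and miR-142a-5p did not pass the test. miR-223-5p was at 569.8, 457.0 and 375.7 CPM in control libraries 1, 2 and 3 and at 267.6, 246.9 and 257.9 CPM after LPS. All 3 LPS libraries lay below all 3 controls, and they lay close together while the controls were spread out. The means were 467.5 ± 97.5 and 257.4 ± 10.4 CPM (SD, n = 3), a log2 fold change of -0.86 (SE 0.15), or 0.55 times the control level. The edgeR adjusted p was 0.00623, with a 95% interval of the log2 fold change from -1.20 to -0.52. Of all 357 tested miRNAs 5.04% were called, and 1.40% were called as falling. Groups that do not overlap were seen in 16.0% of tested miRNAs, and in 7.28% with LPS lower. In bulk RNA, fewer cells of a type and less RNA per cell cannot be told apart.

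miR-223-3p, the arm with the better known targets, was uneven among the controls. It was at 1664, 3415 and 1759 CPM in control libraries 1, 2 and 3 and at 1959, 2557 and 2504 CPM in the LPS libraries. Control library 2 was the highest of all 6, and the other 2 controls were the lowest, so the LPS libraries all lay inside the control range. The means were 2279 ± 984 and 2340 ± 331 CPM (SD, n = 3), and the log2 fold change of 0.04 (SE 0.25) did not pass (edgeR adjusted p = 0.998, 95% interval -0.51 to 0.58). Without control library 2 the log2 fold change was 0.46, still not past the threshold (edgeR adjusted p = 0.172, with a range of 0.172 to 0.998 over the alternatives), and without control library 1 it was -0.19. The interval is wide enough to hold a fall of 0.51 or a rise of 0.58 on the log2 scale, so a change of that size was not detectable here.

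The spread of miR-223-3p among the controls, a coefficient of variation of 43.2%, was large for its level. Of 56 miRNAs with a mean of at least 1000 CPM, 1 had a larger one, and their median was 7.3%. In the LPS libraries miR-223-3p varied by 14.1%, against a median of 9.4%. miR-223-5p had its highest control value in library 1 and miR-223-3p in library 2, so the 2 arms of the hairpin did not vary together in the controls. Over the 6 libraries the log2 CPM of the arms had a Pearson correlation of -0.199, given as a description only.

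miR-142a-5p was far more abundant and did not pass the test. It held 229888, 238828 and 231968 counts without LPS, and 196331, 213230 and 223791 counts with it. In scaled levels these were 54578, 57969 and 56255 CPM in controls and 62164, 52271 and 56797 CPM after LPS. The LPS libraries included both the highest and the lowest of the 6 values, so the groups overlapped. The means were 56268 ± 1695 and 57077 ± 4952 CPM (SD, n = 3), with a log2 fold change of 0.02 (SE 0.10, edgeR adjusted p = 0.992, 95% interval -0.19 to 0.23). Its coefficient of variation among controls was 3.0%, and 47 of the 56 abundant miRNAs had a larger one.

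**Figure D2:**
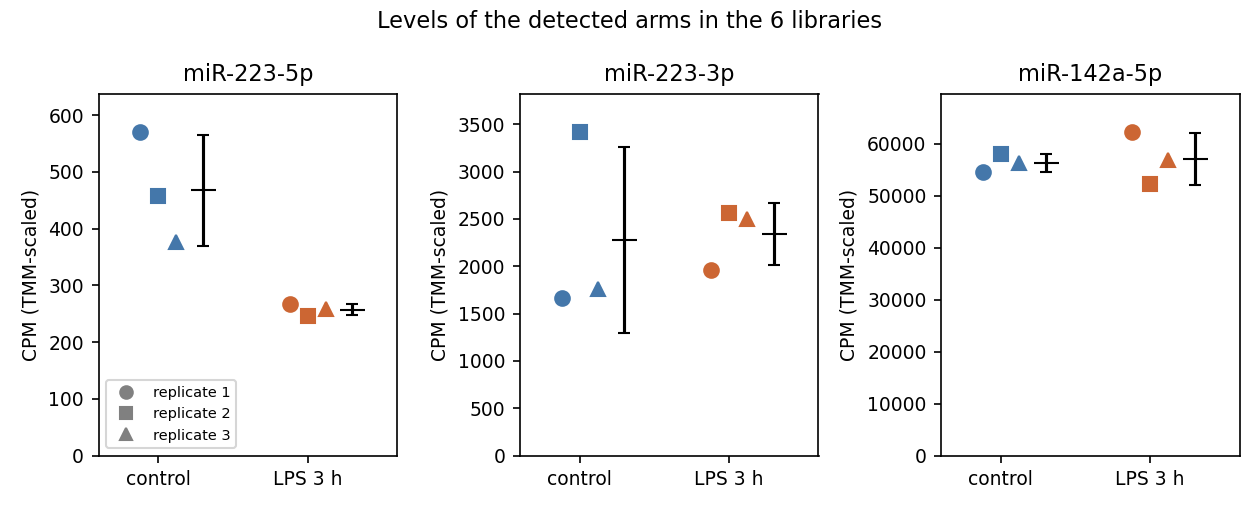
CPM of miR-223-5p, miR-223-3p and miR-142a-5p (vertical axes, each from 0) in control and LPS libraries, with a symbol per replicate number and the mean ± SD of the 3 libraries beside them. The LPS values of miR-223-5p (246.9 to 267.6 CPM) lie below all controls, while the groups overlap for miR-223-3p and miR-142a-5p.

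In every library the order of the levels was the same: miR-142a-5p, then miR-223-3p, then miR-223-5p. miR-142a-5p ranked 4 or 5 among all miRNAs by counts in each library, with 5.74% ± 0.389 of control counts and 5.59% ± 0.344 of LPS counts (SD, n = 3, two-sided exact permutation p = 0.8). miR-223-3p ranked 35 to 48 and held 0.234% ± 0.109 and 0.230% ± 0.0374 of counts (exact permutation p = 1). miR-223-5p ranked 68 to 77 in controls and 89 to 92 after LPS, with 0.0475% ± 0.00853 and 0.0252% ± 0.000505 of counts (exact permutation p = 0.1, the smallest that 3 against 3 libraries can give). Counts of miR-142a-5p were 17.0 to 32.8 times those of miR-223-3p, and the lowest ratio was in control library 2. For miR-223-3p and miR-142a-5p the sign of the small difference between groups depended on whether raw shares or TMM-scaled levels were used.

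The next comparison asked whether LPS shifted the balance between the arms of a hairpin. In miR-223 the 5p arm lost ground. It made up 25.5%, 11.8% and 17.6% of the miR-223 counts in control libraries 1, 2 and 3, and 12.0%, 8.80% and 9.34% in the LPS libraries. Of the LPS libraries, 2 lay below all controls, and LPS library 1 lay between controls 2 and 3. With 7032 to 15951 counts behind each share, the 95% Wilson intervals were 24.6% to 26.4% in control library 1, 11.3% to 12.3% in control library 2 and 11.3% to 12.8% in LPS library 1. They cover counting error only, since the reads carry no molecular identifiers. The controls therefore differed from each other by more than counting error.

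The mean share of the 5p arm was 18.3% ± 6.88 in controls and 10.1% ± 1.72 after LPS (SD, n = 3), which an exact permutation test did not separate (two-sided p = 0.2, where 0.1 is the smallest possible). Put as a ratio of counts, the 3p arm was 2.92, 7.47 and 4.68 times the 5p arm in controls and 7.32, 10.4 and 9.71 times after LPS. Limma, fitted to the within-library difference of the arms over 100 hairpins with both arms counted, gave an LPS minus control difference of -0.95 on the log2 scale (SE 0.26, limma adjusted p = 0.0254). Of the 100 hairpins 12.0% passed, and 3.00% passed with the less abundant arm losing ground. Whether or not they passed, the difference was above 0 in 53 of the 100. The call on miR-223 ended without control library 1 (-0.61, limma adjusted p = 0.287), without LPS library 2 (-0.85, 0.196) and in a fit with no variance trend (0.128). Control library 1, with the highest 5p share, and control library 2, with the lowest among controls, pulled in opposite directions: without control library 2 the difference was -1.29 (limma adjusted p = 0.000235).

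**Figure D3:**
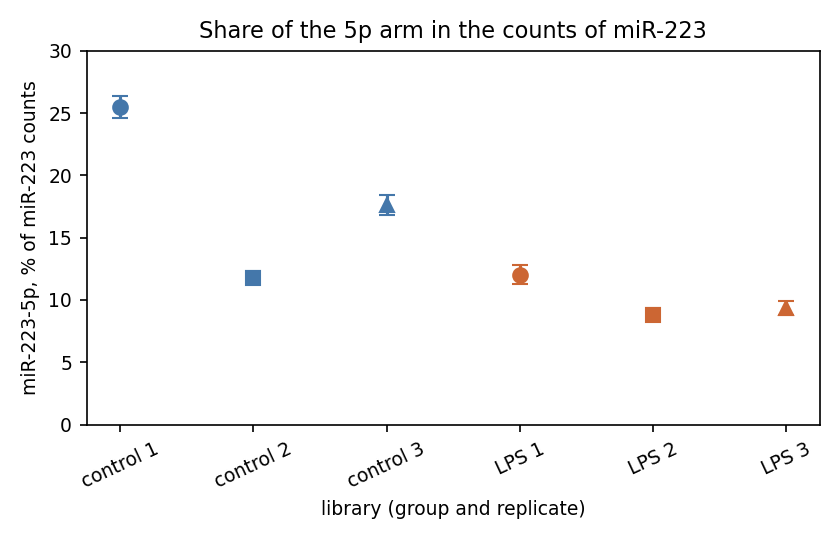
Share of miR-223-5p in the counts of both miR-223 arms (vertical axis, percent) for each library, with 95% Wilson intervals for counting error. Controls run from 11.8% to 25.5% and LPS libraries from 8.80% to 12.0%, and the groups overlap at control 2 and LPS 1.

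By size of the arm difference miR-223 ranked 8 among the 100 hairpins. Directly above it stood let-7e (1.70, SE 0.25, limma adjusted p = 8.96e-05), miR-23a (-1.35, SE 0.48, 0.0947) and miR-222 (1.17, SE 0.19, 0.000231). Directly below it stood miR-25 (-0.91, SE 0.36, 0.154), miR-500 (0.81, SE 0.40, 0.346) and miR-221 (0.79, SE 0.16, 0.00195). Thus let-7e, miR-222 and miR-221 moved toward their less abundant arm and passed, and miR-23a and miR-25, with negative values like miR-223, did not pass. The less abundant arm of miR-223 was also a larger part of its hairpin than in most: 13.7% over all libraries, against a median of 7.18%, with 37 hairpins above it. The median arm difference over all 100 hairpins was 0.03. The sum of both miR-223 arms was 0.282% ± 0.109 of control counts and 0.255% ± 0.0371 of LPS counts (exact permutation p = 0.8).

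**Figure D4:**
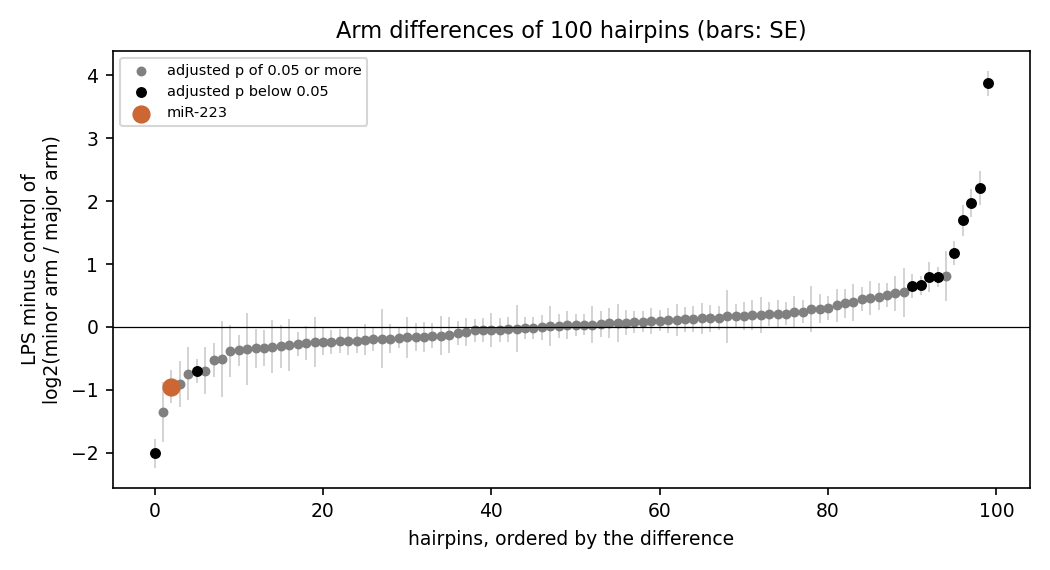
LPS minus control difference of log2(less abundant arm / more abundant arm) for 100 hairpins in rising order (points, bars are SE), with black points for limma adjusted p below 0.05. miR-223, at -0.95, is the third lowest hairpin and is 1 of 3 that passed in the negative direction.

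No such comparison could be made for miR-142a. miR-142a-3p, the arm known for its high level in blood cells, had 0 counts in all 6 libraries, and miR-142b also had 0 in all 6. A count of 0 allows up to 3 counts per library, which is 0.696 to 0.914 CPM of the unscaled library totals. Beside 196331 or more counts of miR-142a-5p, that limit would put miR-142a-3p at no more than 0.00153% of the hairpin's counts. The limit covers counting error only and holds for the deposited counts: how reads that fit features on both strands were counted is not given in the sources used here. No fold change is given for these 2 members, and the arm balance of miR-142a in the cells was not measured by these tables.

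Strand overlap of the same kind went together with counts of 0 elsewhere in the tables. Of the 1623 listed miRNAs with a sequence in the RefSeq table, 57 overlap another listed mature miRNA on the opposite strand, in 29 pairs with overlaps of 11 to 22 bases. Of these 57, 55 had 0 counts in all libraries (96.5%), none had 10 or more, and the 57 summed to 3 counts. Of 1511 miRNAs with 1 hairpin and no such overlap, 47.3% had 0 counts and 30.9% had 10 or more. For 45 miRNAs with several hairpins and no such overlap these shares were 62.2% and 35.6%. Some of the 57, such as miR-219a-5p, are known from nervous tissue, and for these a count of 0 in macrophages says nothing of how reads were handled. miR-142a-5p belongs to a class of 10 miRNAs that overlap an opposite hairpin but none of the 1623 on the opposite strand. Partners among listed miRNAs without a sequence in that table, such as miR-3065-3p and miR-126a-5p, could not be found, in any class. Of these 10, 70.0% had 0 counts and 3 had 10 or more. miR-142a-5p alone held 1334036 of the 1334593 counts in that class. The part of the overlap in the counts of 0 was not tested.

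**Figure D5:**
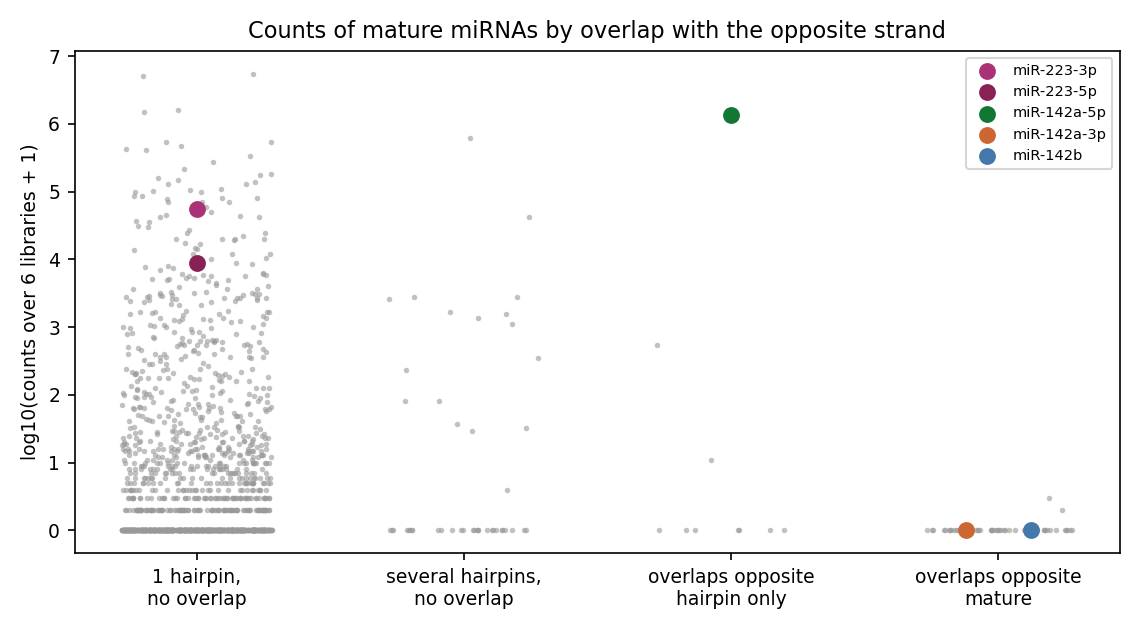
Counts summed over 6 libraries for 1623 mature miRNAs, as log10(counts + 1) on the vertical axis, by class of overlap with the opposite strand (grey points, each a miRNA). miR-142a-3p and miR-142b lie at 0 among the 57 miRNAs that overlap an opposite mature miRNA, whose highest value is 2 counts, while miR-142a-5p is the highest of its class.

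Other miRNAs of the myeloid lineage ranged from abundant to undetected in the same libraries. Of 16 arms in this list, 14 were tested, 4 rose, none fell and 10 did not pass. Of all tested miRNAs 3.64% rose. The list had a median log2 fold change of 0.06 against 0.01 over all tested miRNAs. The rises were miR-155-5p and miR-155-3p (log2 fold changes 2.75 and 6.85), known to promote inflammatory responses, miR-146a-3p (2.41), from a hairpin known to restrain them, and miR-21a-3p (0.78). The last lost its call with upper-quartile factors and without control library 2 or 3 or LPS library 1 or 3 (edgeR adjusted p up to 0.0863). At an unadjusted p below 0.05, 1 member was lower, miR-342-5p, and DESeq2 and limma-voom called 0 falls in the list. The most abundant members were miR-22-3p (233019 ± 11735 and 235120 ± 20205 CPM in control and LPS, SD, n = 3), miR-21a-5p and miR-146a-5p. Much scarcer were miR-511-3p, miR-22-5p, miR-322-3p, miR-511-5p and miR-146a-3p. Their means over all libraries were 207.5, 173.0, 127.5, 33.7 and 28.2 CPM. Both arms of miR-338 were at 0, and miR-338-3p is among the 57 miRNAs with an opposite-strand partner. miR-22-3p thus exceeded miR-142a-5p in every library, and miR-146a-5p (17089 ± 1060 and 19764 ± 3135 CPM) lay between miR-142a-5p and miR-223-3p. The calls in this list were known from earlier work on these data and are no independent evidence.

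Markers of other blood and tissue cells were low or did not pass the test. The 8 lymphoid arms summed to between 414.5 and 498.3 CPM in controls and between 395.2 and 521.4 CPM after LPS, led by miR-181a-1-3p, miR-181b-5p and miR-150-5p. In this list miR-181a-5p, which comes from several hairpins, had a mean of 3.37 CPM over all libraries, against 223.1 CPM for miR-181a-1-3p. Another miRNA from several hairpins, miR-92a-3p, was at 26493 CPM. How reads with several matches were counted is not given, and its part in low sums of markers was not tested. The 7 erythroid arms summed to 0 to 5 counts per library, with 5 of them at 0 throughout, and the 10 stromal arms to 12 to 26 counts. Of the 9 arms of megakaryocytes, progenitors and endothelium, 5 were tested and none passed by edgeR, with miR-126a-5p and miR-196b-3p at 0. The other arm, miR-126a-3p, had 1 count over all libraries and is among the 57 miRNAs with an opposite-strand partner. The sum of the 9 arms, made up mostly of miR-10a-5p, was 22767 to 31122 CPM in controls and 24063 to 25808 CPM after LPS. None of the 6 tested lymphoid arms and not the 1 tested stromal arm (miR-10b-5p) passed either. In these 3 lists 0 arms had an unadjusted p below 0.05, and DESeq2 and limma-voom called 0. Messenger RNAs that define macrophages or granulocytes were not measured in these libraries, so the part of granulocytes, which are rich in miR-223, in the uneven control levels was not tested.

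The miRNAs most like each member across the 6 libraries were found by the Pearson correlation of log2 CPM among 255 miRNAs with a mean of at least 10 CPM. For miR-223-5p these were miR-3082-3p (0.937), miR-664-5p (0.933) and miR-421-3p (0.909). All 3 were lower in every LPS library than in every control, as were 7.28% of all tested miRNAs. None of the 3 passed by edgeR (log2 fold changes -0.33, -0.33 and -0.19, adjusted p = 0.645, 0.279 and 0.620). For miR-223-3p they were miR-27a-3p (0.959), miR-532-3p (0.948) and miR-339-5p (0.899), each of which had its highest value in control library 2, as miR-223-3p did. For miR-142a-5p they were miR-15a-5p (0.962), miR-140-5p (0.912) and miR-193a-3p (0.904), each highest in LPS library 1. The 6 libraries share their depth and scaling across all miRNAs. As the miRNAs were picked by likeness over these same libraries, a pattern shared with the member follows largely from the choice. These values are therefore a description only.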

How the data were processed

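Small RNA was sequenced from total RNA (TruSeq Small RNA libraries, per the labels' protocols). The authors deposited raw counts per mature miRNA, not normalized and with every row naming a miRNA. Novoalign, SAMtools 0.1.19 and the build GRCm38.p1 (mm10) are listed in the submitters' processing notes. How reads were counted, on which miRNA annotation, and with what rule for strand or multiple matches is not given in the sources used here.

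Counts were tested with edgeR 4.0.16 (quasi-likelihood F test, TMM, filterByExpr with a minimum count of 10) in R 4.3.3, Benjamini-Hochberg adjusted over 357 miRNAs that hold 99.974% of counts. SE is the log2 fold change over the root of F. CPM uses the TMM-scaled library sizes (factors 0.960 to 1.053). Arms were compared with limma 3.58.1 on log2 CPM (prior count 2), with a variance trend, leaving out arms shared by several hairpins. Shares were tested by exact permutation of the libraries, two-sided. The edgeR and limma tests were also run on simulated counts with known changes. Those counts had the same spread setting for all miRNAs and arms drawn independently. The error rate of the tests in these data was therefore not measured. Replicates differed beyond counting noise in every case (lowest chi-square over its degrees of freedom 53.0). DESeq2 1.42.0, limma-voom, other scalings and filters, a replicate block and leaving out each library were alternatives.

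The members and lists were chosen with earlier results of these data known. The rule for naming miRNAs took all 5 members, the 3 most correlated with each detected member, miRNAs sharing a seed and opposite-strand pairs with counts. Per list it took the 3 most abundant and all that passed. The 3 hairpins next to miR-223 on each side by arm difference were also taken. Named outside this rule are scarce or undetected list arms, miR-342-5p, miR-92a-3p and examples of strand overlap. Sequences and positions are from RefSeq (GRCm38.p6), to which 1623 of 1907 miRNAs matched by name.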

Additional observations from a re-analysis of the deposited data

How the results depend on the processing

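The fall of miR-223-5p kept its direction and its call in all 16 alternatives (log2 fold change -0.96 to -0.74 when 1 library was left out, adjusted p from 1.61e-06 to 0.037 over all of them). miR-223-3p and miR-142a-5p passed in none, and their signs turned: with library totals to -0.03 and -0.04, with upper-quartile factors to -0.01 and -0.04. Without 1 library miR-223-3p ranged from -0.19 to 0.46 and miR-142a-5p from -0.08 to 0.09. With the TMM-scaled library size the differences in share became 0.00608 percentage points for miR-223-3p and 0.081 for miR-142a-5p, and without 1 library these shares differed by -0.0402 to 0.0584 and by -0.352 to 0.0346. The arm difference of miR-223 ranged from -1.29 to -0.61 without 1 library, and was -0.95 with an adjusted p of 0.128 with no variance trend, where 7 hairpins passed in place of 12. Without 1 library 8 to 14 hairpins and 11 to 18 miRNAs passed (11 without LPS replicate 3). The cause of these shifts was not tested. Leaving out libraries from the 5p share of miR-223 gave differences of -11.5 to -4.65 percentage points.

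Replicate numbers are shared across groups, but the deviations of same-numbered libraries from their group means correlated at 0.025, 0.144 and -0.04, and only library pair 2 correlated best with its own number, so the numbers were not taken as pairs. With a replicate block 17 miRNAs and 11 hairpins passed, miR-223-5p had a log2 fold change of -0.84 (edgeR adjusted p = 0.0122) and the arm difference of miR-223 was -0.95 (limma adjusted p = 0.00448). The block gave miR-223-3p 0.11 and miR-142a-5p 0.02, and a sign-flip test over the pairs, whose smallest p is 0.25, gave 0.25 for the 5p share and for the share of miR-223-5p.

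The call of miR-21a-3p was lost in 5 of 16 alternatives (adjusted p up to 0.0863), and the arm differences of miR-23a and miR-25 passed in 2 and 1 of 10. Among named miRNAs that did not pass, signs also turned with library totals and upper-quartile factors for miR-22-3p (-0.05 in both), miR-532-3p (-0.05 in both), miR-15a-5p (-0.04 in both) and miR-140-5p (-0.02 in both). Without 1 library the log2 fold changes ranged from -0.09 to 0.08 for miR-22-3p, -0.08 to 0.20 for miR-181b-5p, -0.15 to 0.06 for miR-10a-5p, -0.60 to 0.08 for miR-10b-5p, -0.05 to 0.21 for miR-27a-3p, -0.13 to 0.16 for miR-532-3p, -0.24 to 0.13 for miR-339-5p, -0.13 to 0.11 for miR-15a-5p and -0.06 to 0.14 for miR-140-5p. Summing miR-142a-3p with miR-142b gave a total of 0, so no test or arm share of the sum could be had.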

Other observations

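miR-142a is not the only hairpin in these tables with an abundant arm beside an opposite-strand arm at 0. The 57 miRNAs here are those with an opposite-strand mature partner. Of them, 3 have a sister arm counted at 77 or more in every library, with no such partner found. They are miR-142a-3p, miR-30e-3p and miR-497a-3p, chosen after their values were seen. Sister arms were looked up by exchanging 5p and 3p in the name. Of those with no such partner found, all others had 0 counts in every library. This lookup missed names that hold a hairpin number. One such arm is miR-3074-1-3p, from a hairpin of miR-3074-5p, with a mean of 3.91 CPM over all libraries. miR-30e-3p, opposite miR-30f, had 0 counts, and its sister miR-30e-5p, a member of a family found in most tissues, had 37886 to 49095 counts per library. miR-497a-3p, opposite miR-497b, had 0 counts beside 77 to 104 of miR-497a-5p. The only 2 of the 57 with any count were miR-24-3p, with 2 counts over all 6 libraries opposite miR-3074-5p, and miR-126a-3p, with 1 count opposite miR-126b-5p.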
